A study of Homo sapiens with 8 samples.

Results

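ZNF genes carry the root symbol ZNF followed by a number and form one of the largest groups of human genes named for zinc finger proteins. The genes described here are those with a symbol made of ZNF, a number and at most 1 further letter, whose mean log2 signal over the 4 control arrays was at least 7.5. Of 479 such ZNF genes with a probe set of their own, 159 (33.2%) reached that level and are called expressed ZNF genes below, while 320 did not. The level was taken from the control arrays, on the probe set of each gene with the highest mean over all 8 arrays. The 159 stand among 18377 genes in all, of which 8911 (48.5%) reached the same level. Below, genes of the same level means genes with a control mean of at least 7.5, which are not matched to the members in level.

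A549 cells, a human line derived from a lung adenocarcinoma with features of alveolar type II epithelium, had been exposed at the air-liquid interface for 4 hr, and RNA was collected 9 hr later. There were 4 groups of 2 arrays: cells given the primary pollutants in the morning (labelled fresh urban mix), cells given the photochemically altered (PCA) pollutants in the evening (labelled aged urban mix), and for each a control kept at the same time in incubator air, which the labels call humidified air. All groups were unmodified cells of the 1 line, so no genotype differs between them. Mixture, time of day and exposure run change together, so a difference between mixtures cannot be told apart from one of time or run. Of 8 markers of lung epithelium or of A549, all 8 lay at or above 7.5 in the controls, from 8.94 for KRT19 to 13.98 for ALDH1A1. None of 3 leukocyte and 3 endothelial markers did, and of 4 fibroblast markers only COL1A1 did, at 8.39. In bulk RNA of this kind, fewer cells of a type and less RNA per cell cannot be told apart.

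Most ZNF genes encode proteins with C2H2 zinc fingers, small folds held by a zinc ion, each of which contacts a few bases of DNA, so that a row of fingers reads a longer site. Many also carry a KRAB domain, which recruits the co-repressor TRIM28 and through it the histone methyltransferase SETDB1 and heterochromatin proteins. KRAB zinc finger genes have multiplied by local duplication, so that close relatives often lie side by side, and many bind and silence transposable elements. Some genes with the root symbol do other work, among them a ubiquitin ligase on ribosomes, a spindle protein and several RNA-binding proteins.

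After the PCA pollutants 5 of the 159 expressed ZNF genes fell: ZNF654, ZNF292, ZNF277, ZNF224 and ZNF234. Here fell or rose means a Benjamini-Hochberg adjusted p under 0.05 in limma, over all probe sets tested, with a fold change of at least 1.5. The 5 are 3.14% of the members, near the 2.66% of all genes tested and 4.2% of genes of the same level that fell. Of the 5, ZNF224 and ZNF234 lie in the same row of neighbouring zinc finger genes. The upstream sequences of these 2 and of ZNF277 are shown next. A run of 14 bases was sought in the 4 sequences printed here after they were chosen. That all 4 hold it follows from the search and is not a result about the fallen genes. ZNF283, a neighbour of ZNF224 whose 1.48-fold lower signal stayed just under the fold limit, is shown with them. Each is the 250 bases before the annotated start in RefSeq (GRCh38.p14), 5′ to 3′ on the gene's strand, with the run in capitals.
ZNF224, chr19:44094111-44094360, plus strand: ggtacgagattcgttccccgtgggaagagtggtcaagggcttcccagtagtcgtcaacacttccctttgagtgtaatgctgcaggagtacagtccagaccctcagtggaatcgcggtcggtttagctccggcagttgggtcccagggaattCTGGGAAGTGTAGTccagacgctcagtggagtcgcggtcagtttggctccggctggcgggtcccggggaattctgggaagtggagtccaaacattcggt
ZNF234, chr19:44141304-44141553, plus strand: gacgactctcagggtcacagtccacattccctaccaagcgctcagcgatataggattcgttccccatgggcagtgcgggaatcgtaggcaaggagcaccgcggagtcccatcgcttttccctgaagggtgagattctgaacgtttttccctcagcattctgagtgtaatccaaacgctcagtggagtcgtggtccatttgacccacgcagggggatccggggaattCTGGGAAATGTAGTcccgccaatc
ZNF283, chr19:43827071-43827320, plus strand: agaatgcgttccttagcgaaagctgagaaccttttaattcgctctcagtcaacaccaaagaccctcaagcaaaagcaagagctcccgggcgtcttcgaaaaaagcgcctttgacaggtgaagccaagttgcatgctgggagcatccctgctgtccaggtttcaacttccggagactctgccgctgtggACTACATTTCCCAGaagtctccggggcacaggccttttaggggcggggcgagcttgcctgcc
ZNF277, chr7:112206445-112206694, plus strand: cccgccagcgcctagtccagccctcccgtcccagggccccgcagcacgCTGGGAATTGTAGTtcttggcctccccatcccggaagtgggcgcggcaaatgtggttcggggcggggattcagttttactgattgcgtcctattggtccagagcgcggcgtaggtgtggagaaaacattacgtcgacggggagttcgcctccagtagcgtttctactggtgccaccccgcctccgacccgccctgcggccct
The run, CTGGGAANTGTAGT, is the longest that all 4 hold when 1 base is free, and it was searched on both strands. It begins 99 bases before the start in ZNF224, and in ZNF283 it lies on the other strand. ZNF292 does not hold it in this window, and for ZNF654 no promoter was listed.

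In the controls the expressed ZNF genes reached up to 10.63, with a median of 8.02, against a median of 7.42 for all genes. These levels chose the members and are given as a description. ZNF207, which binds BUB3 and microtubules at the mitotic spindle, was the highest at 10.63. ZNF512 followed at 10.14, ZNF146, a protein made of little but fingers, at 10.08, and ZNF281, a factor of GC-rich promoters, at 10.08. Only these 4 genes lay over 10, and 77 of the 159 lay between 7.5 and 8. The others of the 10 highest were ZNF460, ZNF507, ZNF638, ZNF217, ZNF330 and ZNF746, at 9.74 to 9.43. ZNF217 is an oncogene amplified in breast cancer, ZNF638 an RNA-binding nuclear protein and ZNF330 a nucleolar protein. Just inside the level of 7.5 lay ZNF133 (7.505), ZNF628 (7.505) and ZNF318 (7.501), and just outside it ZNF300 (7.497), ZNF324B (7.496) and ZNF558 (7.491). Signals of different genes come from different probe sets, so these ranks are of signal and not of transcript number.

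**Figure D1:**
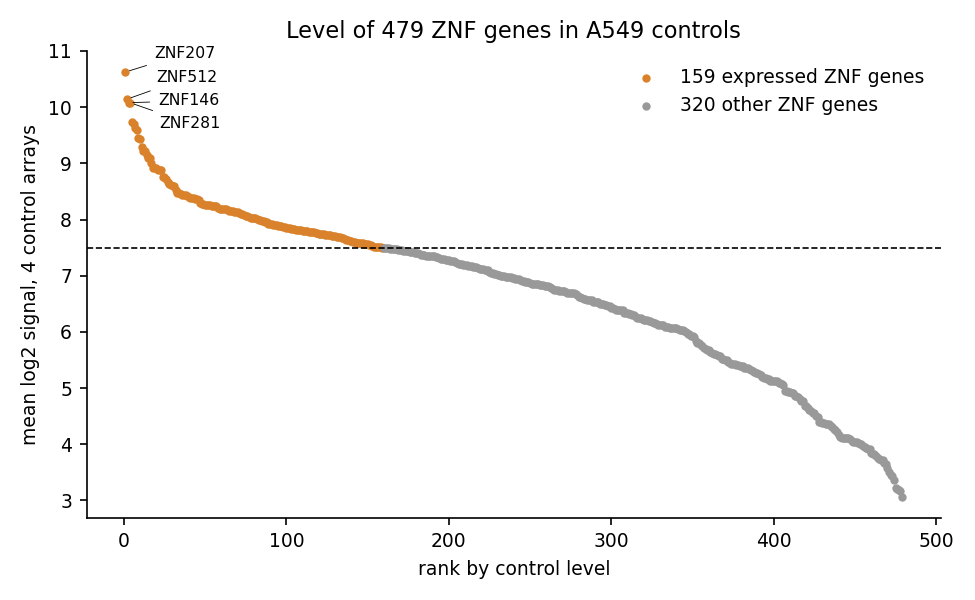
Mean log2 signal over the 4 control arrays (vertical axis) of 479 ZNF genes ranked by that signal (horizontal axis), with the 159 expressed ZNF genes in orange, the other 320 in grey and a dashed line at 7.5. The curve is shallow across the line, so the limit does not mark a gap, and 4 genes lie above 10.

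ZNF292, a large transcription factor gene, had log2 signals of 8.84 and 8.75 in the evening controls and of 8.15 and 8.04 after the PCA pollutants. On the log2 scale it fell by 0.70, which is 1.62-fold, with a standard error of 0.0778 and an adjusted p of 0.00245. The morning controls were at 8.71 and 8.72 and the primary arrays at 8.67 and 8.77, so the PCA arrays alone stood apart from the other 6. ZNF654, of little known function, went from 7.84 and 7.91 to 7.17 and 7.08, the deepest fall among the members, by 0.75 (adjusted p = 0.0132, standard error 0.144). Its other 4 arrays spread widely, from 7.30 to 8.01, and its primary arrays lay below both morning controls.
ZNF277, a zinc finger protein that associates with a Polycomb complex, was at 9.05 and 9.04 in the evening controls and at 8.50 and 8.33 after the PCA pollutants. It fell by 0.63 (adjusted p = 0.00801, standard error 0.104). A weaker probe set of the same gene, at a control mean of 6.47, had a log2 fold change of -0.26 (adjusted p = 0.299), and with the mean of both probe sets ZNF277 was not called.
ZNF224, a KRAB repressor of the aldolase A gene, was at 8.10 and 8.13 in the evening controls and at 7.52 and 7.49 after the PCA pollutants. It fell by 0.61 (adjusted p = 0.00639, standard error 0.0935). ZNF234, a KRAB relative of ZNF224, was at 7.95 and 7.94 and then at 7.28 and 7.41, and fell by 0.60 (adjusted p = 0.00721, standard error 0.0960). In both genes the PCA arrays lay below all 6 other arrays, and the primary responses were 0.01 and -0.06. The fall of all 5 was between 1.52-fold and 1.69-fold, close to the limit, and 0 members passed when limma's treat tested them against the 1.5-fold limit itself.

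**Figure D2:**
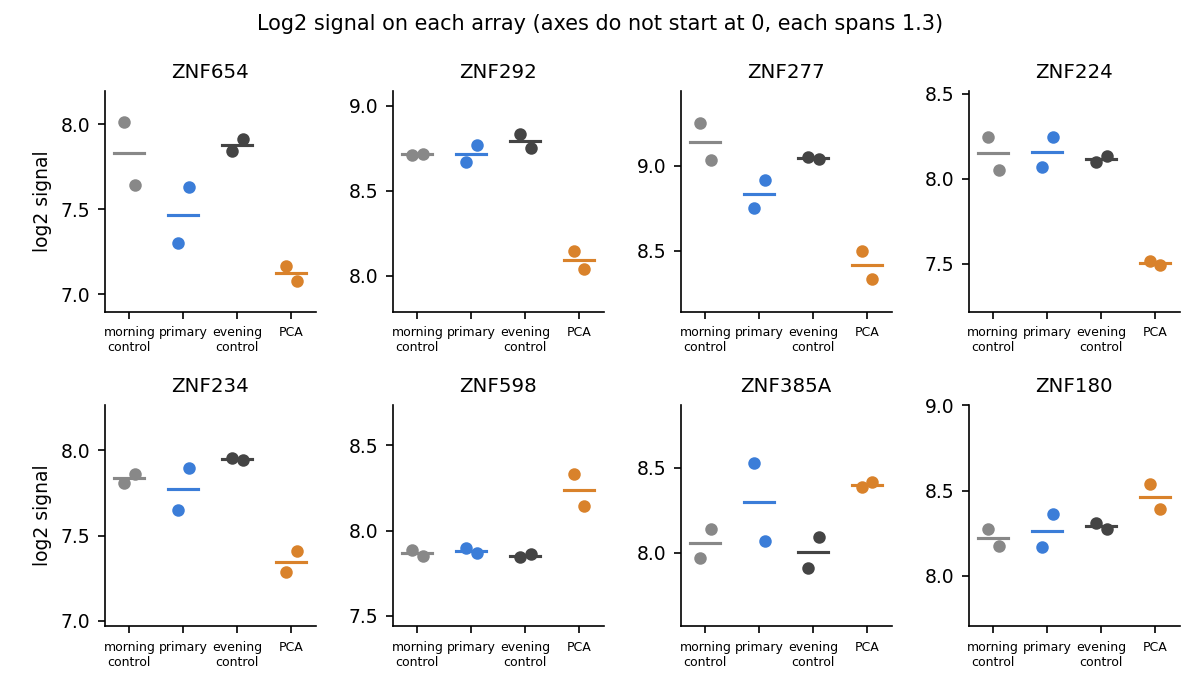
Log2 signal on each array (points; vertical axis, spanning 1.3 in each panel and not starting at 0) by group, with the mean of 2 arrays as a line, for the 5 genes that fell and for ZNF598, ZNF385A and ZNF180. Both PCA arrays of each of the 5 fallen genes lie below the other 6, and those of ZNF598 and ZNF180 above them.

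No expressed ZNF gene rose after the PCA pollutants, where 0.876% of all genes tested and 0.842% of genes of the same control level did. ZNF598, the ubiquitin ligase that marks collided ribosomes, came nearest by p. It was at 7.84 and 7.86 in the evening controls and at 8.33 and 8.14 after the PCA pollutants, which is 0.39 higher on the log2 scale (adjusted p = 0.0184, standard error 0.0821) and under the fold limit. On the other 4 arrays ZNF598 was between 7.85 and 7.90, so only the PCA arrays stood apart. ZNF385A, an RNA-binding partner of p53, was at 7.91 and 8.09 and then at 8.38 and 8.42, a log2 fold change of 0.40 (adjusted p = 0.0955). One of its primary arrays, at 8.53, was higher still and the other, at 8.07, was not. ZNF787, ZNF579 and ZNF316 followed, with log2 fold changes of 0.25, 0.23 and 0.22 that did not pass.

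As a set the expressed ZNF genes had a median close to that of all genes at or above 7.5, which are not matched to them in level. Their median log2 fold change after the PCA pollutants was -0.132 as deposited and 0.00936 with arrays scaled to 60 ribosomal protein genes. The quartiles as deposited were -0.284 and -0.00805. The median was -0.121 over all 8911 genes with a control mean of at least 7.5 and -0.0017 over all 17470 genes tested. The 5 that fell are 3.14% of the members, against 2.66% of all genes tested and 4.2% of genes of the same level. Without the fold limit, 32 members (20.1%) had an adjusted p under 0.05 on the lower side, against 14.1% of all genes and 23.9% of genes of the same level. On the higher side 1 member, ZNF598, had such a p, against 5.72% and 4.1%. A log2 fold change below 0 was found for 120 members (75.5%), against 50.3% and 71.1%. Both PCA arrays lay below both evening controls for 97 members (61%), where the share was 36.6% of all genes and 57.5% at the same level, and above both for 23 (14.5%), against 31.7% and 18.9%. Since members were chosen for a high control signal, a gene whose controls happened to be high was more likely to be included. Chosen by the exposed arrays instead, the members had 4 falls and a median of -0.104.
The median thus changed its direction with the scaling. With the ribosomal scaling the median of all genes tested was 0.141, and of the members only ZNF654 fell. That scaling moves the PCA log2 fold change of every gene up by the same amount, so a median given below that is nearer to 0 than this changes its sign with it. With it the log2 fold changes of ZNF292, ZNF277, ZNF224 and ZNF234 were -0.56, -0.49, -0.47 and -0.46.

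**Figure D3:**
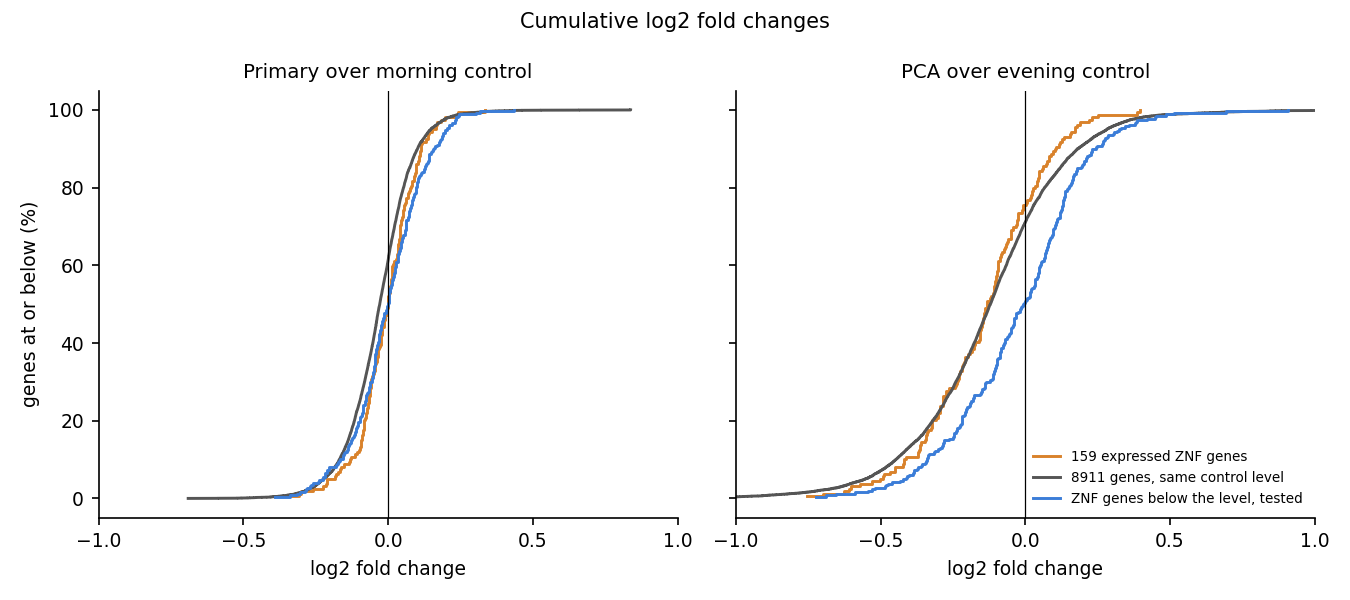
Share of genes (vertical axis, %) at or below each log2 fold change (horizontal axis, shown from -1 to 1) for the primary pollutants (left) and the PCA pollutants (right). Orange is the 159 expressed ZNF genes, black the 8911 genes with a control mean of at least 7.5 and blue the ZNF genes below that level that were tested. After the PCA pollutants the orange and black curves nearly coincide and the blue curve lies to the right. Scaling to ribosomal protein genes would move all 3 curves of a panel together, with the orange median at 0.00936 instead of -0.132 on the right.

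The ZNF genes of lower signal had a median of -0.00489 over the 260 tested after the PCA pollutants, and 6 of them changed (2.31%, against 3.53% of all genes tested and 5.04% of those at the level of the expressed ZNF genes). ZNF175, ZNF287, ZNF594 and ZNF704 fell and ZNF479 and ZNF626 rose, which are named because the count is small. ZNF626 had the highest log2 fold change of the weaker ZNF genes, 0.906. Its evening less morning control difference, -0.526, was the lowest among them, so its rise is measured from a low evening control. The expressed and the weaker ZNF genes differ in signal as well as in the median, and no test of that difference was made. Within the members, the control level and the PCA log2 fold change had a Pearson's r of -0.137 over 159 genes, which share arrays and are not independent. In the band from 7.5 to 8, the median of 77 members was -0.132 and that of all 1805 genes in the band -0.0544. From 8 to 9, the medians were -0.12 for 65 members and -0.124 for all genes in the band. From 9 to 10, they were -0.179 for 13 members and -0.146, and over 10 they were -0.166 for 4 members and -0.147. The median of the members was thus the lower one in 3 of the 4 bands, and no test of these differences was made.

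No expressed ZNF gene rose or fell after the primary pollutants, and neither did any other gene, by limma. An unmoderated analysis of variance called 0 members as well. The study, by its own test, did list changed genes after this mixture, none of them with a ZNF symbol. An unadjusted p under 0.05 was found for 7 members (4.4%), against 7.96% of all genes and 8.71% at the same level. Their median log2 fold change was -0.000855, and 81 of 159 (50.9%) were below 0, against 52.6% of all genes and 61.3% at the same level. ZNF280B, a gene of the ZNF280 family, had the smallest p. It was at 7.75 and 7.77 in the morning controls and at 8.07 and 8.12 after the primary pollutants, which is 0.34 higher on the log2 scale (adjusted p = 0.355, standard error 0.0670). After the PCA pollutants it was at 0.17 (adjusted p = 0.108). Among members whose 2 groups of arrays did not overlap, ZNF628, ZNF274, ZNF484 and ZNF316 came next, at 0.17 to 0.14. At the other end ZNF654 was at -0.36, ZNF277 at -0.31, ZNF766 at -0.30, ZNF827 at -0.26 and ZNF775 at -0.23, with adjusted p from 0.499 to 0.540. The 2 lowest are also among the 5 that fell after the PCA pollutants. ZNF292, ZNF224 and ZNF234 had primary log2 fold changes of 0.00, 0.01 and -0.06. Across the 159 members, whose 2 responses have separate controls, the primary and the PCA log2 fold changes had a Pearson's r of 0.457. The primary arrays agreed less with each other than the controls did, with a correlation over members of 0.958 against 0.983 for the morning controls.

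The response to the PCA pollutants less that to the primary pollutants was not called for any member, against 0.439% of all genes and 0.752% of genes of the same control level. An unadjusted p under 0.05 was found for 32 members (20.1%), against 17.6% and 22.7%. ZNF292 came closest, with a difference of -0.70 (adjusted p = 0.0520, standard error 0.110), and then ZNF740, a difference of -0.52 (adjusted p = 0.0835, standard error 0.106). ZNF740 was at 9.18 and 9.29 in the evening controls and at 8.69 and 8.77 after the PCA pollutants. ZNF224 was at -0.62 (adjusted p = 0.0896), ZNF283 at -0.56 (adjusted p = 0.102) and ZNF234 at -0.54 (adjusted p = 0.117), while ZNF598 had the largest positive difference, 0.37 (adjusted p = 0.172). With a trended and robust prior in limma ZNF292 and ZNF224 passed. Between the 2 control groups no member passed in limma, the smallest adjusted p being 0.999, nor in the analysis of variance. The median of evening less morning control was 0.0108, and 2 members had an unadjusted p under 0.05 (1.26%), against 5.08% of all genes and 5.38% at the same level.

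The row of neighbours that holds ZNF224 and ZNF234 was the lowest of the 6 rows with at least 4 members. A row is a run of protein-coding genes named ZNF, ZFP, ZSCAN or ZKSCAN that follow each other in the annotation (GRCh38.p14) with no other protein-coding gene between them. This row of 20 genes goes from ZNF283 to ZNF180 and was singled out after its values were seen. Its 7 members had a median log2 fold change of -0.489 after the PCA pollutants and of 0.00768 after the primary pollutants. Of the 7, 2 fell after the PCA pollutants, where 2.66% of all genes tested and 4.2% of those at or above 7.5 did. Beside the 2 genes that fell, ZNF283 was at -0.57 (adjusted p = 0.00721), ZNF112 at -0.49 (adjusted p = 0.0149) and ZNF227 at -0.37 (adjusted p = 0.0252), each under the fold limit. ZNF283 was at 7.89 and 7.75 in the evening controls and at 7.15 and 7.35 after the PCA pollutants, and ZNF112 at 7.65 and 7.52 and then at 7.03 and 7.16. In both the groups stood apart.
ZNF45 was at -0.15 (adjusted p = 0.394). ZNF180, at the end of the row, was at 8.31 and 8.27 in the evening controls and at 8.54 and 8.39 after the PCA pollutants, a log2 fold change of 0.17 (adjusted p = 0.217). Over all 17 genes of the row that were tested, weaker ones included, 15 were below 0. The share below 0 was 50.3% of all genes tested and 71.1% of those at or above 7.5. The genes of a row arose by duplication and resemble each other, and how far their probe sets also take up each other's transcripts was not tested.
The other 5 rows had medians between -0.295, for the 4 members from ZNF248 to ZNF33B, and -0.0535, and none of their members fell. These rows have 4 to 7 members each. Of all genes tested 2.66% fell, and 4.2% of those at or above 7.5, so the lack of falls says little. Among the weaker genes of these rows ZFP14, in the row from ZNF565 to ZNF793, fell by 0.59 (adjusted p = 0.0198). Weaker genes included, 4 of 5 tested genes in the row from ZNF248 and 17 of 21 in that from ZNF565 were below 0. The counts were 2 of 5 from ZNF524, 7 of 14 from ZNF530 and 4 of 7 from ZNF786. Having a zinc finger neighbour went with no clear shift in general. The median was -0.141 for the 79 members with one and -0.113 for the 78 without, and 2 members, both pseudogenes by symbol, could not be placed.

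**Figure D4:**
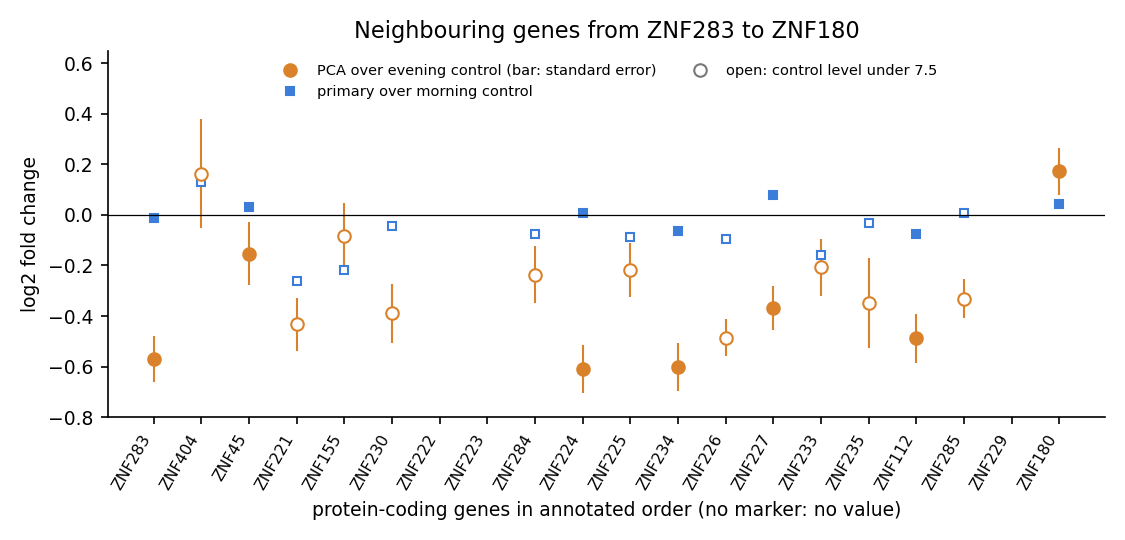
Log2 fold change (vertical axis) of the genes from ZNF283 to ZNF180 in annotated order (horizontal axis), after the PCA pollutants (orange circles, with standard errors) and the primary pollutants (blue squares). Filled markers are expressed ZNF genes and open markers genes of lower signal. Of 17 genes tested, 15 lie below 0 after the PCA pollutants, and ZNF180 lies above. Of all genes tested on the arrays, 50.3% were below 0.

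The 14-base run was in the promoter window of 11 of the 132 members with a listed promoter (8.33%), against 1.08% of 7324 genes of the same level and 0.513% of all 27305 promoters. It was read from the 4 promoters shown, which were chosen for low values. These 4 hold it by the way it was found and count among the 11, which raises the share of members. That share and the link of the run with low values are descriptions only. The 11 are ZNF45, ZNF112, ZNF180, ZNF189, ZNF224, ZNF234, ZNF277, ZNF283, ZNF317, ZNF331 and ZNF451. Of these, 6 lie in the row described above, whose genes arose by duplication, so the 6 are not separate cases. The median log2 fold change of the 11 after the PCA pollutants was -0.359, against -0.113 for the 121 members without the run. Leaving out the 4 whose sequences are printed, the other 7 ran from -0.489 to 0.173, with a median of -0.155. Among genes other than ZNF genes of the same level, the medians were -0.123 for 68 with the run and -0.127 for 7124 without it. The run resembles the published site of ZNF143, an activator that is itself a member. ZNF143 was at 8.49 and 8.46 in the evening controls and at 8.43 on both PCA arrays, a log2 fold change of -0.04 (adjusted p = 0.729).
Of 7 common promoter motifs, searched on both strands, the ETS motif CCGGAAG was found in 29.5% of the members, against 17.4% of genes of the same level and 8.82% of all promoters. The TATA box (TATAAA) was found in 2.27%, against 5.22% and 11.1%. The CCAAT box was in 39.4% (35.3% and 33%), the GC box (GGGCGG) in 65.9% (69.9% and 42.3%), the NRF1 core (GCATGCGC) in 9.09% (5.15% and 2.81%), the CRE (TGACGTCA) in 3.79% (3.13% and 1.77%) and the YY1 core (AAGATGGCG) in 3.03% (1.13% and 0.641%). The median number of CG pairs in the 250 bases was 19 for the members and 11 for all promoters. It was not taken for genes of the same level, so it cannot be read as a trait of ZNF genes. All of these are matches of letters and not sites shown to be bound.

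A list of 12 genes with the root symbol that are known for work other than binding DNA was written after the values were seen. Of these, 11 are members, with a median PCA log2 fold change of -0.12 and 0 called. The share called was 3.53% of all genes tested and 5.04% of those at or above 7.5, so 0 of 11 says little. Of the 11, 9 (81.8%) were below 0, against 75.5% of all members and 71.1% of genes at or above 7.5. With no fold limit 2 of the 11 had an adjusted p under 0.05 in limma and were lower. The share was 20.1% of all members and 23.9% of genes at or above 7.5. The 2 are ZNF346, which binds double-stranded RNA, at -0.32 (adjusted p = 0.0305) and ZNF326, which couples splicing to transcription, at -0.33 (adjusted p = 0.0339). ZNF598 was on the other side, as given above. ZNF451, a SUMO ligase, was at -0.26 (adjusted p = 0.0796), and ZNF207, the highest of all ZNF genes, was at -0.10 (adjusted p = 0.309).

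A list of genes that take part in repression by KRAB zinc finger proteins, or act on it, is called the co-repressor list. It includes SUMO proteases and ZNF274, which is itself a member. None of its 30 measured genes rose or fell after either mixture. After the PCA pollutants 3.53% of all genes tested and 5.04% of genes at or above 7.5 did, so 0 of 30 says little. After the primary pollutants no gene of any kind was called. The median log2 fold change of the 30 was -0.145 after the PCA pollutants, against -0.121 for genes at or above 7.5. Of the 30, 23 (76.7%) were below 0, against 50.3% of all genes tested and 71.1% of genes at or above 7.5. An unadjusted p under 0.05 was found for 14 (46.7%), against 37% and 45.2%. With no fold limit 6 of the 30 (20%) had an adjusted p under 0.05 and were lower, against 14.1% and 23.9%, so these shares lie near those of genes at or above 7.5. CHD3 and CHD4, the ATPases of the NuRD complex that TRIM28 recruits, were at -0.53 (adjusted p = 0.00565) and -0.44 (adjusted p = 0.00632). SENP7, a SUMO protease, was at -0.52 (adjusted p = 0.0131), ATRX, a chromatin remodeller of repeats, at -0.39 (adjusted p = 0.00999), CBX5, the heterochromatin protein HP1 alpha, at -0.36 (adjusted p = 0.0152) and PIAS1, a SUMO ligase, at -0.28 (adjusted p = 0.0261). TRIM28 itself, which is also one of the TRIM ubiquitin ligase genes, was at -0.13 (adjusted p = 0.237, standard error 0.0724) and SETDB1 at -0.27 (adjusted p = 0.0558, standard error 0.0818). ZNF274, a KRAB protein known to bring SETDB1 to zinc finger genes, was at 0.16 (adjusted p = 0.151). After the primary pollutants the median of the list was -0.00286, and none had an unadjusted p under 0.05.

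The symbols ZFP, ZSCAN, ZKSCAN and ZBTB with a number held 32 genes of the same control level, with a median PCA log2 fold change of -0.0986. These genes were matched by symbol alone, ZFP36 among them, so not all need be relatives of the ZNF genes. ZBTB20, a repressor of the BTB zinc finger class, fell by 0.89 (adjusted p = 0.00242, standard error 0.0980), more than any expressed ZNF gene. ZKSCAN1, which joins KRAB and SCAN domains to its fingers, fell by 0.66 (adjusted p = 0.0033, standard error 0.0831). The other 30 did not pass, and none of the 32 rose. The 2 called are 6.25% of the 32, against 3.53% of all genes tested and 5.04% of those at or above 7.5.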

How the data were processed

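The authors hybridised total RNA of 8 A549 samples (2 per group) to Affymetrix Human Gene ST arrays and deposited log2 signals normalized by robust multichip average over 28869 probe sets. Per the labels, Partek 6.4 was used. The genome build of the probe sets was not given in the sources used here. The labels call the samples of a group separate, and the study calls them biological duplicates of 1 exposure run, so p-values measure the spread within a run. The number of arrays limits the precision: the median standard error of a member's PCA log2 fold change was 0.0868.

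The deposited values were used as they stand. Probe sets with 1 symbol in the platform annotation, updated through GRCh38.p14, gave 18377 genes, each represented by the probe set with the highest mean over all arrays. A further 34 ZNF symbols occur on shared probe sets alone and were not analysed. Probe sets entered a comparison if any array in it had a signal of 30 or more on the linear scale, and all members did. Group means over all 8 arrays were fitted with limma 3.58.1 (lmFit, eBayes; R 4.3.3), and genes were called at a fold change of 1.5 or more with a Benjamini-Hochberg adjusted p under 0.05. The fit was tested on simulated data. Members and lists were chosen with earlier results of these data known. Genes were named by rule: called members, the 5 largest differences each way where fewer than 10 were called, the 10 highest levels and the edges of the level. The rule also took called or leading genes of the co-repressor list and called genes of the other zinc finger symbols. A part of the rule on the number of fingers could not be applied. Other names were chosen after their values were seen. Alternatives covered the filter, scaling, prior, test, fold limit, probe set summary, membership, replicate block and each array left out. Promoters came from RefSeq, and plots from matplotlib 3.10.9 (Python 3.11.15).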

Additional observations from a re-analysis of the deposited data

How the results depend on the processing

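The 5 falls after the PCA pollutants became 4 to 6 with 1 array left out, and ZNF224 and ZNF292 were called in every such fit. ZNF654 was lost without evening control replicate 1, and ZNF654 and ZNF277 without evening control replicate 2 or PCA pollutants replicate 2. ZNF234 was lost without PCA pollutants replicate 1. Exchanging the controls also lost it (-0.49). ZNF277 was lost with quantile normalization or the mean of probe sets, and ZNF654 with an unmoderated analysis of variance after Benjamini-Hochberg adjustment (adjusted p = 0.0775). The count was 1 with arrays scaled to ribosomal protein genes, 0 with limma's treat, 33 with no fold limit (32 lower and 1 higher), 3 with a membership level of 8 and 2 (ZNF292 and ZNF654) with cyclic loess, which was chosen after seeing the data. The median after the PCA pollutants was -0.115 to -0.144 with 1 array left out. It was -0.192 with arrays centred on their medians, -0.0763 with quantile normalization, 0.00936 scaled to ribosomal protein genes and -0.0727 with cyclic loess. Scaled to ribosomal protein genes, the primary median was 0.0944 and that of evening over morning control 0.0984. The difference between the responses called 2 members with a minimum signal of 100, a trended and robust prior or an unmoderated analysis of variance without adjustment, each time ZNF224 and ZNF292, and 1 (ZNF292) with the mean of probe sets. Of the co-repressor genes, 0 or 1 were called with 1 array left out (CHD3 without PCA pollutants replicate 1, SENP7 without replicate 2). The count was 1 with arrays centred, quantile normalization, cyclic loess or exchanged controls (the last 2 chosen after seeing the data), and 6 with no fold limit. Replicate numbers do not pair the arrays: correlations of same-numbered deviations between groups were -0.106 to 0.0600, and with the number as a replicate block the same 5 genes were called and the other counts stayed at 0.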
